A study of Mus musculus with 16 samples.

Results

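Transcript levels were examined for 8 genes of the pathway by which cells replace inhibited proteasomes: the transcription factor Nfe2l1 and its relative Nfe2l2, the Nfe2l2 inhibitor Keap1, the Nfe2l1-processing enzymes Ddi2 and Ngly1, and the ATPase Vcp with its cofactors Ufd1l and Nploc4. They were picked by gene symbol from the 23356 genes in each table, and all 8 were found in every table. RNA came from NIH3T3 cells, a mouse embryonic fibroblast line, stably expressing a destabilizing domain (DD) fused to superfolder GFP and sorted for high GFP. This domain, derived from FKBP12, keeps its fold only while the ligand Shield-1 is bound and is otherwise cleared by proteasomes. Control cells carried the same construct. Of the 16 libraries, 4 came from untreated control cells (0 min) and 4 each from cells harvested 45, 135 and 405 min after addition of bortezomib, an inhibitor of the proteasome whose dose is not in the labels. Whether Shield-1 stayed on the cells during bortezomib is not given in the sources used here, so any unfolded DD in the treated cells cannot be told apart from the drug. Vehicle-treated cells at the later times were not analysed here, so drug and elapsed time cannot be told apart.

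Nfe2l1 (also called Nrf1 or TCF11) is made in the endoplasmic reticulum (ER) and is normally pulled out of the membrane by the ATPase p97, encoded by Vcp, and degraded. When proteasomes are blocked the extracted protein accumulates, its sugars are removed by the glycanase Ngly1, it is cut by the protease Ddi2, and the released fragment enters the nucleus and switches on proteasome subunit genes, a feedback known as the bounce-back response. Nfe2l2 (Nrf2) is held at a low level by a separate route, in which Keap1 presents it to a Cul3 ubiquitin ligase. Most of this control acts on the proteins, which mRNA levels do not show.

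The libraries fell into 2 kinds that the groups do not explain. Total fragments assigned to genes ranged from 570323 to 19930375. In 7 libraries genes whose symbols begin with Rpl or Rps and a digit, mostly ribosomal protein genes, held 4.25 to 9.42% of the fragments, and in the other 9 they held 0.398 to 1.21%, with 405 min replicate 3 (4.25%) and control replicate 2 (1.21%) nearest to the dividing value of 4%. The 7 libraries with a share over 4% (called high-share libraries from here on) were replicates 1 and 2 at 45 min, replicates 1 and 2 at 135 min, and replicates 1, 3 and 4 at 405 min. All 4 controls were low-share libraries. Levels are given as CPM, fragments scaled to those of the genes found in every library and not to the library total. Summed levels of 8 fibroblast markers (Col1a1, Col1a2, Col3a1, Fn1, Vim, Thy1, Sparc, Lgals1) were 5775 to 38714 CPM in the high-share libraries and 302 to 2226 CPM in the low-share ones, none of them absent from a kind. Olfactory and vomeronasal receptor genes, which are not fibroblast genes, took 0.00531 to 2.61% and 4.14 to 5.12% of fragments, respectively. Summed markers of neural cells (Rbfox3, Syt1, Gfap, Snap25) were at 0.833 to 213 CPM in the high-share and 167 to 332 CPM in the low-share libraries, and epithelial markers (Epcam, Cdh1, Krt14, Krt18) at 0.729 to 73.4 and 124 to 229 CPM. Levels against control are therefore given below with and without the high-share libraries, and the time course also within them.

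The promoters of 3 of the genes are printed because 2 of them, Vcp and Nfe2l2, hold the only matches among the 8 genes to the core of the element bound by CNC factors such as Nfe2l1 and Nfe2l2 with small Maf partners, and the third is that of Nfe2l1 itself. The sequences are the 250 bases before an annotated start in RefSeq (assembly GRCm38.p6), read 5′ to 3′ on the gene's strand. Capitals mark the CNC core TGACNNNGC and the CCAAT box on either strand, the latter written ATTGG where it lies on the other strand. The windows are chr4:43000508-43000757 for Vcp, chr2:75704664-75704913 for Nfe2l2 and chr11:96824128-96824377 for the third of 5 annotated Nfe2l1 starts, all on the minus strand.
Vcp: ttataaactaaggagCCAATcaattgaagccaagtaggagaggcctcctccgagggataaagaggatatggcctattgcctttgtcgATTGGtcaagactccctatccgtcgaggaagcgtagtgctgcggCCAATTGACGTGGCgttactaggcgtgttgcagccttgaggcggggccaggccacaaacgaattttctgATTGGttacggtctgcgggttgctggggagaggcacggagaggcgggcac
Nfe2l2: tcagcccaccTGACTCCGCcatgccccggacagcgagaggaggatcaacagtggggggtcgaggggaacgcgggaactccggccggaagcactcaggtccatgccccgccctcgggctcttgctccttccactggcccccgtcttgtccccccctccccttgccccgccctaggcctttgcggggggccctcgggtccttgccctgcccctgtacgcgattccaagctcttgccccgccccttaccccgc
Nfe2l1: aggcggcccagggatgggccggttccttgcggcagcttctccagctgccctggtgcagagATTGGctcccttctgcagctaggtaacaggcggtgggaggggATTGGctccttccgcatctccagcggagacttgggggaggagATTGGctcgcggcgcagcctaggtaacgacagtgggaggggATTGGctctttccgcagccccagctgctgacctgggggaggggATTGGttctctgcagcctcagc
The Vcp match, TGACGTGGC, began 114 bases before the start and directly followed a CCAAT box. The Nfe2l2 match, TGACTCCGC, began 240 bases before the start. The Nfe2l1 window held no CNC core but several CCAAT boxes, 6 in the window that runs 50 bases past the start. At that length the windows of the 5 Nfe2l1 starts held 4, 0, 6, 4 and 2, so the printed one held the most. Windows 3 to 5 overlap. In windows reaching from 250 bases before to 50 bases after the start, searched on both strands, the core was found for 2 of the 8 genes and in 12.4% of all 32851 RefSeq windows, and the CCAAT box for 2 of the 8 genes and in 37.4% of windows. The heat shock core GAANNTTC, which reads the same on both strands, lay 60 bases before the Vcp start and 176 bases before that of Nploc4, and was present in 7.86% of windows. Nfe2l1 had 5 of the 12 windows of the 8 genes, so shares of genes and of windows are unlike measures. These matches describe the letters of the windows and not bound sites.

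The 2 transcription factors come first, and their courses were not tested against each other. Levels are given as CPM after TMM scaling (a correction of library size for composition), listed by replicate from 1 to 4. Nfe2l1 (chr11:96678728-96691282, NCBIM37) was at 88.4, 104, 178 and 138 CPM in control cells. It was at 245, 70.0, 130 and 136 CPM at 45 min and at 41.9, 117, 297 and 155 CPM at 135 min. At 405 min it was at 627, 109.5, 131 and 269.8 CPM. The highest Nfe2l1 level was in 405 min replicate 1, a high-share library, the next in 135 min replicate 3, a low-share library, and the third in 405 min replicate 4, a high-share library. The other 405 min values lay inside the control range. Every time point overlapped the controls. Fragment counts behind these values ran from 55 to 5509, and 95% Wilson intervals, which cover counting error only because PCR copies are not independent molecules, were for example 68.0 to 115 CPM in control replicate 1. Lower CPM of a gene in bulk RNA can mean fewer cells expressing it or less of its RNA per cell, which cannot be told apart.

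Nfe2l2, the oxidative stress factor (chr2:75513570-75542698), was at 46.6, 91.9, 65.7 and 0 CPM in control cells, where a count of 0 in replicate 4 allows up to 5.0 CPM. It was at 216, 460.1, 33.6 and 40.0 CPM at 45 min. Its levels at 135 min were 812, 193, 173 and 35.7 CPM. At 405 min they were 360, 82.1, 535 and 333 CPM. In each bortezomib group the high-share libraries were the high ones: all 7 lay at or above 193 CPM, and the 9 low-share libraries at or below 173 CPM. Among all 22359 genes with a fragment, 5.95% had every high-share library above every low-share one, and Nfe2l2 and Ufd1l were the 2 of the 8 genes that did. None of the 8 had every high-share library below every low-share one, as 4.17% of genes did.

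Keap1, the adaptor that marks Nfe2l2 for degradation (chr9:21034174-21043776), was at 64.3, 129, 92.3 and 133 CPM in control cells. At 45 min it stood at 36.1, 31.8, 121 and 107 CPM. At 135 min it was at 14.4, 35.6, 224 and 78.2 CPM, and at 405 min at 82.9, 67.5, 75.9 and 27.0 CPM. Here the order was turned round at 45 and 135 min, with both high-share libraries below both low-share ones, but at 405 min the low-share library lay among the high-share ones.

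**Figure D1:**
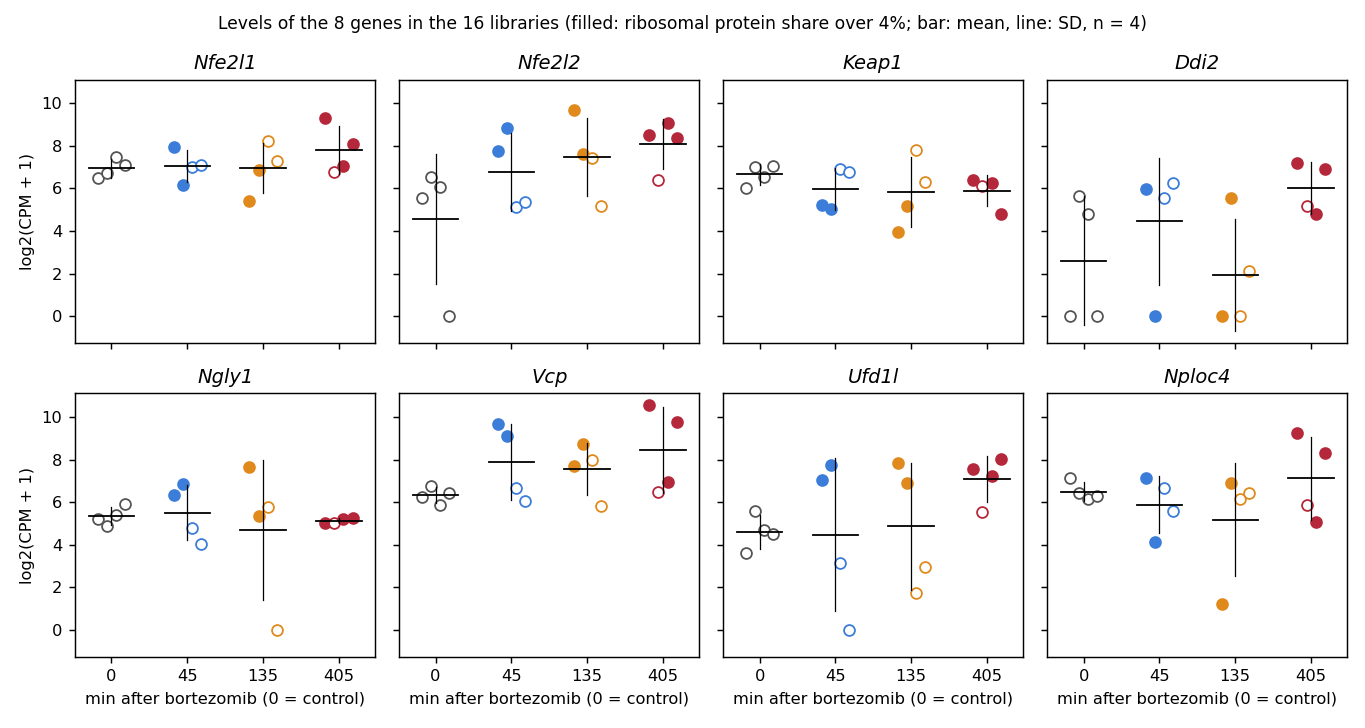
Level of each gene, log2(CPM + 1), in every library against time after bortezomib in min (0 is control). Filled points are high-share libraries, open points low-share ones, and bars and lines give the mean and SD of 4 libraries. Nfe2l2 and Ufd1l have all 7 filled points above all 9 open ones, and no gene has a bortezomib group that clears the 4 controls.

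The Nfe2l1-processing enzymes had counts of 0 in several libraries. Ddi2, the aspartic protease that cuts Nfe2l1 (chr4:141233464-141279334), was at 0, 48.5, 26.6 and 0 CPM in control cells. It stood at 62.4, 0, 46.1 and 75.6 CPM at 45 min and at 0, 46.5, 0 and 3.40 CPM at 135 min. At 405 min it was at 147, 34.7, 26.9 and 119 CPM, the one group in which every library held Ddi2 fragments. Zeros were found in 5 of 16 libraries, among them 45 min replicate 2 with 6107601 fragments in all, where 0 allows up to 1.02 CPM. Rsc1a1, a gene on the same strand, shares 1749 exon bases with Ddi2, and how the authors' counting divided fragments between them is not known. With 0 fragments in Ddi2, Rsc1a1 held 64 fragments in 45 min replicate 2, 79 in 135 min replicate 1, 50 in 135 min replicate 3 and 16 in control replicate 4. The sum of both genes was 0 in 1 of the 16 libraries, control replicate 1, and came to 21.9 to 83.6 CPM at 45 min, 32.3 to 115 CPM at 135 min and 45.6 to 148 CPM at 405 min. The level of Ddi2 alone is therefore uncertain.

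Ngly1, the glycanase that strips N-glycans from proteins leaving the ER (chr14:17081794-17144440), was at 35.4, 28.4, 40.7 and 58.3 CPM in control cells. It was at 79.0, 113, 26.9 and 15.6 CPM at 45 min and at 199.6, 40.2, 53.0 and 0 CPM at 135 min, where 0 in replicate 4 allows up to 5.10 CPM. At 405 min the 4 values, 31.7, 31.0, 35.5 and 37.3 CPM, were the closest together of any group of this gene and lay within the control range. Its SD on the log2 scale was 0.12 at 405 min against 3.28 at 135 min.

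Per kilobase of exon, Vcp reached the highest level of the 8 genes in a single library, 308 CPM per kb. This gene (chr4:42992835-43013379) encodes p97, the ATPase that extracts ubiquitylated proteins from membranes and complexes. It was at 74.0, 109, 57.9 and 85.0 CPM in control cells. At 45 min it stood at 828, 545, 101 and 64.4 CPM, and at 135 min at 205, 418, 251 and 56.1 CPM. At 405 min it was at 1494, 87.6, 124 and 879 CPM. Every high-share library lay above all 4 controls, from 124 CPM in 405 min replicate 3 upward, but 135 min replicate 3, a low-share library, reached 251 CPM too. The other low-share libraries ranged from 56.1 to 109 CPM whatever their time. Part of the Vcp exons, 352 bases, overlaps 1700022I11Rik on the opposite strand, and strand use in the counting is not stated.

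Ufd1l and Nploc4 form the heterodimer that brings ubiquitylated substrates to p97, yet their levels did not run together. Ufd1l (chr16:18811872-18835354) was at 11.3, 46.8, 25.0 and 21.7 CPM in control cells and at 131, 212, 7.69 and 0 CPM at 45 min, where 0 allows up to 6.67 CPM. It was at 226, 119, 2.30 and 6.80 CPM at 135 min, the third value resting on 1 fragment. At 405 min it was at 185, 45.6, 149 and 259 CPM. The 7 high-share libraries spanned only 119 to 259 CPM over all times, and the 9 low-share ones 0 to 46.8 CPM. Ufd1l shares 209 exon bases with Cdc45 on the opposite strand.

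Nploc4 (chr11:120241684-120299022) was at 138, 85.2, 70.4 and 76.7 CPM in control cells. It was at 141, 16.7, 99.0 and 46.7 CPM at 45 min and at 1.31, 117, 69.1 and 85.0 CPM at 135 min. At 405 min it was at 600.3, 56.6, 33.0 and 314 CPM. Its highest values were in replicates 1 and 4 at 405 min, which held the first and the third highest Nfe2l1 levels. Its lowest was in a high-share library, 135 min replicate 1, where 2 fragments gave 1.31 CPM (95% Wilson interval 0.359 to 4.77). The Ufd1l level per kilobase of exon was above that of Nploc4 in 5 of 7 high-share libraries and in 0 of 9 low-share ones.

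**Figure D2:**
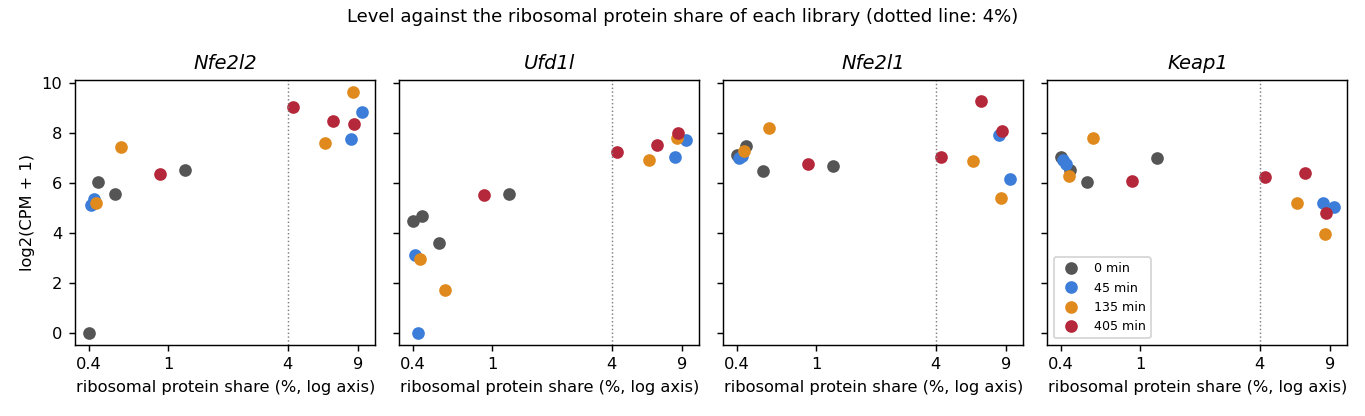
Level of 4 of the genes, log2(CPM + 1), against the percent of fragments in ribosomal protein genes (log axis) for the 16 libraries, coloured by time. Nfe2l2 and Ufd1l are higher in every library right of the dotted 4% line than in any left of it, Nfe2l1 overlaps across it, and the 9 Keap1 points left of the line span 64.3 to 224 CPM against 14.4 to 82.9 CPM right of it.

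Per kilobase of exon, which allows genes to be compared with each other, the order of the 8 genes differed between the 2 kinds of library. In the high-share libraries the median level was 112 CPM per kb for Vcp, 94.7 for Nfe2l2 and 42.6 for Ufd1l. The ranges of Vcp (25.5 to 308) and Nfe2l2 (50.9 to 214) overlapped, and Vcp was first in 4 of the 7 libraries and Nfe2l2 in 3. Nploc4 (24.6 CPM per kb) and Nfe2l1 (24.1) followed at nearly the same median, and then Keap1 (7.97), Ngly1 (7.63) and Ddi2 (4.87), whose ranges overlapped as well. In the low-share libraries Nfe2l1 (24.9 CPM per kb) and Keap1 (23.9) had the highest medians, with overlapping ranges, and Ufd1l had the lowest at 2.60. Nfe2l1 was first in 4 of those 9 libraries and Keap1 in 3. The level of Nfe2l2 divided by that of Keap1, both per kb, was 5.11 to 66.4 in the 7 high-share libraries and 0 to 1.43 in the 9 low-share ones.

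The median over high-share libraries was above that over low-share ones by 4.04 on the log2 scale for Ufd1l, 2.95 for Nfe2l2 and 2.68 for Vcp. The same difference was -0.05 for Nfe2l1 and -1.58 for Keap1. Over the 16520 genes with both medians above 0 the median difference was -1.37. A difference larger than that of Ufd1l was found in 2.34% of genes, and larger than that of Nfe2l2 in 5.62%. For Vcp and Nfe2l1 the shares were 6.89 and 32.7%. For Keap1 a higher value was found in 52.4% of genes, so Keap1 lay near the median gene. The share of ribosomal protein transcripts, the fibroblast markers and depth moved with these levels, and their part in them was not tested.

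To ask whether the 8 genes responded to proteasome inhibition, each bortezomib group was compared with control by edgeR's quasi-likelihood test on all 16 libraries. Only genes with a fragment in every library were tested, as the study's methods remove genes with a zero count, and Nfe2l1, Keap1, Vcp and Nploc4 passed, along with 21.5% of all genes (5030 genes). The other 4 genes took their values from the fit without that filter (22359 genes). With adjustment over all genes tested, 0 of the 8 genes passed an adjusted p of 0.05 at 45, 135 or 405 min. The background was as low: 0% of tested genes passed at each time in the filtered fit, and in the unfiltered fit 0% at 45 and 135 min and 0.00447% (1 gene) at 405 min. At an unadjusted p of 0.05, 1 of the 8 passed at 45 min (Vcp), 1 at 135 min (Nfe2l2) and 3 at 405 min (Vcp, Nfe2l2 and Ufd1l), beside 12.9, 9.18 and 16% of all genes in the filtered fit and 8.29, 3.63 and 9.23% in the unfiltered one. With all 8 genes taken from the unfiltered fit the counts were 1, 1 and 5, as Nfe2l1 (unadjusted p = 0.0226) and Nploc4 (unadjusted p = 0.0325) passed at 405 min as well. The variation between libraries of a group was 79.1% (the square root of the common dispersion). As no source says that replicates were separate cultures, p-values measure the spread between these samples.

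Vcp had the smallest p of the 8 genes at 405 min. Its log2 fold change against control was 2.24 at 45 min (SE 0.98, unadjusted p = 0.0342, edgeR adjusted p = 0.381), 1.52 at 135 min (SE 0.96, adjusted p = 0.569) and 2.99 at 405 min (SE 1.01, unadjusted p = 0.00823, adjusted p = 0.285). DESeq2 on the same genes gave 2.85 at 405 min (SE 0.87, adjusted p = 0.0191), the only one of the 8 genes it called at any time among those to which it gave an adjusted p. Over all alternatives the adjusted p of Vcp at 405 min ran from 0.0191 to 0.9999. DESeq2 called 4.45, 0.159 and 7% of the genes tested at 45, 135 and 405 min. Among genes to which it gave an adjusted p, these were 224 of 2299, 8 of 1714 and 352 of 2689. In the 9 low-share libraries alone, the Vcp difference was 0.07 at 45 min (SE 0.59), 0.90 at 135 min (SE 0.58) and 0.10 at 405 min (SE 0.77, on 1 library assumed to vary like the others).

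Nfe2l2 and Ufd1l were tested in the unfiltered fit, in which Vcp had the largest difference of the 8 genes at 405 min, 4.20. Nfe2l2 was above control by 2.42, 2.84 and 3.44 on the log2 scale at 45, 135 and 405 min (SE 1.27, 1.29 and 1.33), with an edgeR adjusted p of 0.418 at 405 min. Among low-share libraries the values were -0.52, 0.70 and 0.73. Ufd1l was above control by 2.36, 2.21 and 3.47 (SE 1.35, 1.35 and 1.41, adjusted p = 0.434 at 405 min). Among low-share libraries the sign turned at the first times, with -2.58, -2.68 and 0.88. With the log2 ribosomal protein share as a covariate, an alternative added after the data had been seen, the 405 min values were 0.91 for Vcp (SE 0.78), 0.88 for Nfe2l2 (SE 0.85) and -0.40 for Ufd1l (SE 0.80).

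Nfe2l1 differed from control by 0.19 at 45 min (SE 0.66), 0.26 at 135 min (SE 0.66) and 1.16 at 405 min (SE 0.67, edgeR adjusted p = 0.372), and by -0.24 at 405 min in the low-share library. The 405 min value rested on the filter and on 1 library: it was 2.32 without the filter, 2.23 with filterByExpr and 0.42 without 405 min replicate 1, with adjusted p over the alternatives from 0.211 to 0.9999. Nploc4 differed by -0.28 (SE 0.95), -0.44 (SE 0.95) and 1.44 (SE 0.96, adjusted p = 0.435), and by -0.73 at 405 min in the low-share library. Its 405 min value was 2.66 without the filter and 0.55 without replicate 1. Keap1 was the one gene with a negative value at every time, at -0.51, -0.27 and -0.73 (SE 0.71 each, adjusted p = 0.569 at 405 min), though without the filter the 405 min value was 0.10. For Ddi2 the differences were 1.41, 0.09 and 3.14 (SE 1.62, 1.59 and 1.71) and for the sum with Rsc1a1 0.99, 0.94 and 2.38 (adjusted p = 0.468 at 405 min). Ngly1 differed by 1.09, 1.17 and 0.51 (SE 1.12, 1.12 and 1.11). For none of the 8 genes did the 4 libraries of a time point clear the 4 controls in either direction, which 5.06, 9.01 and 9.57% of genes did at 45, 135 and 405 min. The median log2 fold change over all genes tested was 0.14, 0.16 and 0.11 in the filtered fit and -0.40, -0.34 and -0.31 in the unfiltered one, against which the values above are to be read.

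**Figure D3:**
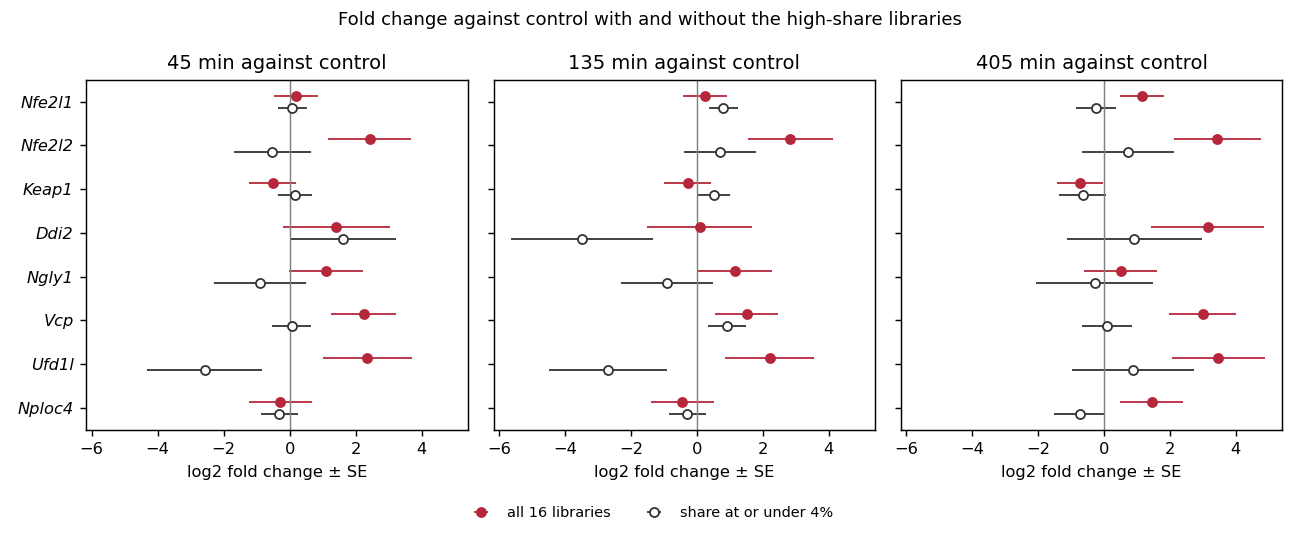
Log2 fold change against control with its SE (horizontal bars) at 45, 135 and 405 min, from all 16 libraries (filled) and from the 9 low-share libraries (open). At 405 min Vcp stands at 2.99 with all libraries and at 0.10 with the low-share ones, and Nfe2l2 at 3.44 and 0.73.

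Within the 7 high-share libraries, which include no control, the course from 45 to 405 min could be read among libraries over the 4% share. Of the 7, 405 min replicate 3 lay nearest to the low-share kind. It had the lowest ribosomal protein share (4.25%), the highest share of olfactory and vomeronasal receptor genes (2.61%) and the fewest fragments (1385229). Of the 8 genes, 7 passed the filter there and Ddi2 did not. The test called 0 of the 8 between any 2 times, beside 0% of the 8605 genes in the filtered fit and, in the unfiltered one, 0.0135, 0.0359 and 0.0718% for 135 against 45 min, 405 against 135 min and 405 against 45 min. DESeq2 called 0 of the 8 as well, beside 0.0349, 0 and 0.721% of genes. At an unadjusted p of 0.05, edgeR passed 0, 2 and 0 of the 8, beside 1.64, 3.32 and 7.16% of genes in the filtered fit. With all 8 genes taken from the unfiltered fit it passed 0, 3 and 1, beside 3.99, 2.39 and 5.89%, as Nploc4 was added at both steps to 405 min.

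The 2 were Nfe2l1 and Ngly1, whose differences between 135 and 405 min had opposite signs. Nfe2l1 was at 245 and 70.0 CPM at 45 min, 41.9 and 117 CPM at 135 min and 627, 131 and 269.8 CPM at 405 min. All 3 late values were above both at 135 min, but 1 of them lay between the values at 45 min. The log2 differences were -0.91 for 135 against 45 min (SE 0.91), 2.12 for 405 against 135 min (SE 0.89, unadjusted p = 0.0379, edgeR adjusted p = 0.909) and 1.21 for 405 against 45 min (SE 0.85). The second of these was 1.34 without 405 min replicate 1 and 0.91 over all 16 libraries. Ngly1 differed by 0.34 (SE 0.77), -1.69 (SE 0.70, unadjusted p = 0.0347, adjusted p = 0.909) and -1.35 (SE 0.69, adjusted p = 0.692). The second was -0.21 without 135 min replicate 1 and -0.67 over all 16 libraries. Its 3 late values, 31.7 to 37.3 CPM, lay below the 4 earlier ones, 40.2 to 199.6 CPM. It was the 1 of the 8 genes whose 405 and 45 min libraries did not overlap, and 16.1% of all genes did the same.

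None of the p97 genes was called here, and they were not tested against one another. Between 45 and 405 min Vcp differed by 0.37 (SE 0.90), Ufd1l by 0.32 (SE 0.57) and Nploc4 by 2.07 (SE 1.53, edgeR adjusted p = 0.726), the last with 33.0 CPM in replicate 3 against 600.3 and 314 CPM in the other 2 late libraries. Nfe2l2 differed by 0.41 (SE 0.72) and Keap1 by 0.99 (SE 0.80). For Ddi2 the unfiltered fit gave 1.59 (SE 0.99), and it was called between 135 min and either other time, by edgeR, when 135 min replicate 2 was left out (-10.47 against 45 min, adjusted p = 0.0109, and 12.05 for 405 against 135 min, adjusted p = 0.00112). The 1 library then left at 135 min held 0 Ddi2 and 79 Rsc1a1 fragments. In these libraries the median of all genes tested was -0.07, 0.16 and 0.14 for the 3 steps in the filtered fit.

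The genes downstream and around the 8 were read from 5 lists: the proteasome genes that Nfe2l1 controls, the antioxidant genes that Nfe2l2 controls, cofactors of p97 and of ER retrotranslocation, the Keap1 ligase, and other CNC and small Maf factors. By edgeR, 0 genes of any list passed the adjusted threshold in any comparison. Of 32 proteasome genes, 7 passed the filter on all libraries. At 405 min all 7 had positive values, from 2.05 to 4.11 with a median of 3.55 (0.11 for all genes). By edgeR 6 of them were at an unadjusted p under 0.05, beside 16% of all genes. DESeq2 called 5 of these 7, Psma3, Psma6, Psmc2, Psmd1 and Psmd2, beside 352 of 2689 genes with an adjusted p. At 45 min it called 1 of them, Psma3, beside 224 of 2299 genes. In the low-share libraries alone the same list had 2 of 7 positive at 45 min, with a median of -0.48 (-0.03 for all genes). At 135 min 0 of 7 were positive there, from -4.37 to -0.05 with a median of -1.57 (0.03 for all genes). All 32 were tested in the high-share libraries, where 24 were positive for 405 against 45 min with a median of 0.34 (0.14 for all genes), 0 at an unadjusted p under 0.05 (7.16% of all genes), and 24 were positive for 405 against 135 min with a median of 0.83 (0.16 for all genes), 5 at an unadjusted p under 0.05 (3.32% of all genes).

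Psmd1, a base subunit of the regulatory particle, was the first of the genes named by mean CPM. It was at 38.6 to 117 CPM in control cells, 6.67 to 1219 at 45 min, 18.4 to 1324 at 135 min and 173 to 2712 at 405 min. By kind of library it was at 645 to 2712 CPM in high-share and 6.67 to 173 CPM in low-share libraries. Its difference was 4.11 against control at 405 min (SE 1.50, edgeR adjusted p = 0.285) and 0.52 from 45 to 405 min in high-share libraries (SE 0.75). The 20S core subunits Psma4 and Psma5, named next, differed by -0.53 (SE 0.81) and -0.16 (SE 0.75) over that step.

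The Nfe2l2 targets had a higher median from 45 to 405 min than the other 4 lists, whose medians were 0.26 to 0.50. All 8 were tested in the high-share libraries and all 8 were positive for 405 against 45 min, from 0.77 to 4.88, with a median of 1.75 (0.14 for all genes) and 3 of them at an unadjusted p under 0.05 (7.16% of all genes). Against control at 405 min, 6 of 6 tested were positive with a median of 2.66 (0.11 for all genes). DESeq2 called 3 of the 5 to which it gave an adjusted p, Gclc, Srxn1 and Txnrd1, beside 352 of 2689 genes. At 135 min DESeq2 called 2, Gclc and Gclm, where it called 8 of the 1714 genes to which it gave an adjusted p. In the low-share libraries alone the median was 0.52 at 45 min, with 4 of 6 positive and a range from -2.03 to 1.15. At 135 min it was 0.30 there, with 4 of 6 positive and a range from -0.84 to 0.87. Slc7a11, the cystine carrier, chosen after its values were seen, was at 13.4 and 9.90 CPM at 45 min, 28.1 and 104 CPM at 135 min and 390, 189.7 and 390.1 CPM at 405 min in the high-share libraries, and at 45.0, 96.9, 105 and 103 CPM in control cells. Its difference from 45 to 405 min was 4.88 (SE 0.85, unadjusted p = 0.000162, edgeR adjusted p = 0.672), and it was the 1 list gene that DESeq2 called within these libraries.

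Hmox1, which encodes haem oxygenase, was at 249 and 77.2 CPM at 45 min, 133 and 573 CPM at 135 min and 3164, 69.7 and 1614 CPM at 405 min in high-share libraries, a difference of 3.39 from 45 to 405 min (SE 1.39, edgeR adjusted p = 0.690). The late library at 69.7 CPM, replicate 3, was below both at 45 min. Txnrd1, a thioredoxin reductase, differed by 0.85 (SE 0.76) and Gclm, a subunit of the glutathione-synthesizing ligase, by 1.04 (SE 0.87), both with their highest level in 135 min replicate 1 (4538 and 3634 CPM). That library also had the highest Nfe2l2 level, 812 CPM, the highest Gclc level, 662 CPM, and the lowest Keap1 level, 14.4 CPM. Nqo1, Srxn1, Slc7a11, Osgin1 and Hmox1 did not peak there, at 22.9, 47.1, 28.1, 21.6 and 133 CPM. The library had the largest share of genes at 0 fragments of the 16, 49.5%.

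Of 20 p97 cofactors, 14 were tested against control at 405 min, with a median of 0.89 (0.11 for all genes) and 10 positive. By edgeR 4 were at an unadjusted p under 0.05, beside 16% of all genes. DESeq2 called 2 of the 8 to which it gave an adjusted p, Nsfl1c and Ubxn4, beside 352 of 2689 genes. In the low-share libraries alone the median was -0.06 at 45 min and -0.02 at 135 min, with 6 of 14 positive at each. In high-share libraries 17 were tested and 11 were positive from 45 to 405 min, with a median of 0.48. Plaa, a ubiquitin-binding p97 partner, was at 108 to 224 CPM in control cells and 204 to 1178 CPM at 405 min, and differed by -0.26 (SE 0.66) from 45 to 405 min in high-share libraries. Ubxn4, which tethers p97 to the ER, differed by 1.11 (SE 0.63) over that step and Ubxn7 by 0.20 (SE 0.54).

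Within the Keap1 ligase list, Sqstm1, the autophagy receptor p62 that binds Keap1, was at 31.3 to 83.6 CPM in control cells and 63.9 to 8623 CPM at 405 min. It differed by 3.62 from 45 to 405 min in high-share libraries (SE 1.44, unadjusted p = 0.0298, edgeR adjusted p = 0.690). Over the same step the scaffold Cul3 differed by 0.00 (SE 0.59) and the RING subunit Rbx1 by -1.34 (SE 0.58, unadjusted p = 0.0420). Against control DESeq2 called Cul3 at 45 and 405 min and Sqstm1 at 405 min. Of all genes with an adjusted p it called 224 of 2299 and 352 of 2689 at these times. In the list of CNC factors and partners, 2 of 7 were tested against control and 4 of 7 in the high-share libraries. There Bach1 differed by -0.18 (SE 0.58), Bach2 by -0.10 (SE 0.97) and the small Maf protein Mafg by 1.10 (SE 1.15) from 45 to 405 min.

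**Figure D4:**
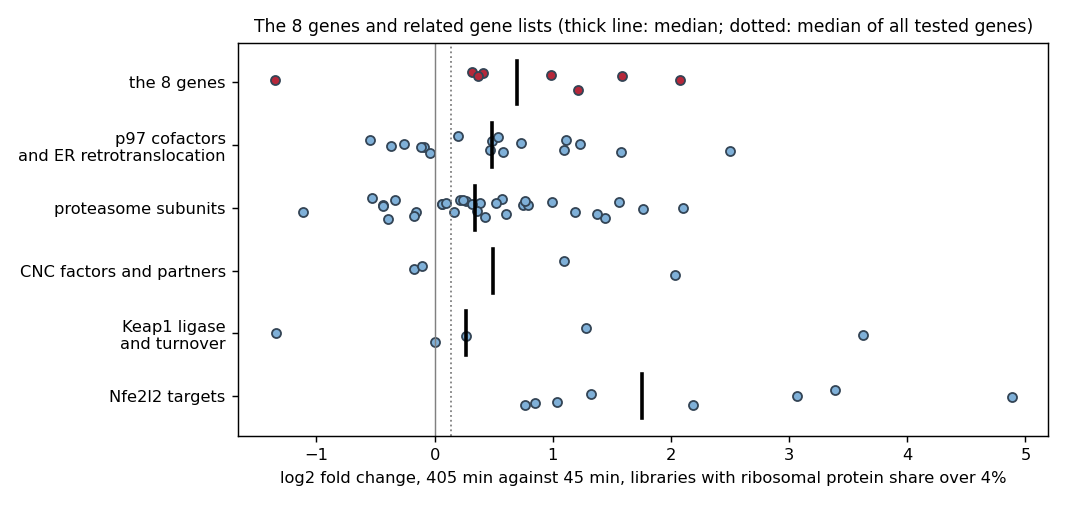
Log2 fold change from 45 to 405 min in the 7 high-share libraries for the 8 genes (red) and for each gene tested of 5 related lists (blue), with vertical offsets only for legibility. Thick lines are medians, 1.75 for Nfe2l2 targets and 0.34 for proteasome subunits, and the dotted line is the median of all genes tested, 0.14.

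The genes whose course over the 7 high-share libraries was most like that of Nfe2l1 were Piezo1 (Pearson r of log2(CPM + 1) 0.998), Phc2 (0.996), Mcm5 (0.992), Prpf19 (0.991) and Slc35b1 (0.990). Over all 16 libraries the values were 0.88, 0.69, 0.35, 0.89 and 0.42. Among the 8 genes Nploc4 was the most like Nfe2l1, with 0.938 over 7 libraries, rank 144 of 8604 genes, and 0.801 over 16. Ngly1 (-0.756) and Nfe2l2 (-0.520) ran against it over the 7. These points share depth and ribosomal protein share, and 2 late libraries hold the highest Nfe2l1 levels of the 7, so the values are descriptions.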

How the data were processed

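RNA-seq of 16 libraries was analysed. Groups and replicate numbers came from the sample titles. The labels name total RNA and the NuGEN Encore Complete kit for the libraries. The study's methods describe poly(A) purification and also name the NuGEN Encore SP+ Complete kit, without saying which samples it served. The authors aligned reads to mm9 by those methods, whereas the submitters' processing notes name mm10, and analysed them against RefSeq on DNAnexus. The aligner and software versions are not given in the sources used here. The authors deposited 1 table per library with the estimated counts of fragments assigned to each of 23356 genes, of which 97.9 to 99.4% were whole numbers. Scaled fragments and FPKM were not used. Symbols that had become dates (27, in the table of 45 min replicate 1) were restored from the row order of the others. No 2 of the 120 library pairs held identical values.

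Counts were rounded and tested with edgeR 4.0.16 (R 4.3.3, quasi-likelihood, TMM, Benjamini-Hochberg adjusted p under 0.05), on all 16 libraries with genes at 1 or more fragments in each, and again on the 7 high-share libraries. The SE of a fold change was taken as its size over the root of its F statistic. CPM were computed over the fragments of tested genes, with a pseudocount of 1 for log2 values. Total fragments of 570323 to 19930375 set the precision, and 1 fragment was worth more CPM in shallow libraries. The test was tried on simulated data. Positions, overlaps and exon lengths came from GENCODE M1 on NCBIM37 (mm9), and promoters from RefSeq on GRCm38.p6, which matched all 8 genes (Ufd1l through its synonym Ufd1).

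The alternatives were RLE factors, filterByExpr, no filter, DESeq2 1.42.0, the replicate number as a block, only the 2 groups compared, low-share libraries alone, a share over 6%, all 16 libraries for the later steps, and leaving out each library. The share as a covariate and the sum of Ddi2 and Rsc1a1 came in as alternatives only once the data had been examined. Replicate numbers did not pair libraries over the groups as a whole, though those of 45 and 135 min went together (r of deviations 0.49 to 0.54). The 8 genes and the lists were chosen with earlier results of these data known. From each list the 3 genes with the highest mean CPM were named, and list genes that DESeq2 called were named after their values were seen. The 5 genes most correlated with Nfe2l1 over the high-share libraries were named too.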

Additional observations from a re-analysis of the deposited data

Results flagged for a closer look

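In 3 of the 32 sets of 4 libraries (8 genes in 4 groups), 1 library lay far from the other 3 by Dixon's test on log2(CPM + 1). Chance marks about 1 set in 20. Nfe2l2 in control replicate 4 was at 0 (0 fragments), with the other controls at 5.57 to 6.54. Ddi2 in 45 min replicate 2 was at 0, with the others at 5.56 to 6.26, and in that library Rsc1a1, which shares exon bases with Ddi2, held 64 fragments. Nploc4 in 135 min replicate 1 was at 1.21 (2 fragments), with the others at 6.13 to 6.89, while Nfe2l2 had its highest level in the same library.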

How the results depend on the processing

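Of 351 values of single genes under alternatives other than leaving out a library, 311 kept their sign and were not called, 39 turned sign and 1 passed the threshold. Values to which DESeq2 gave no adjusted p were counted as not called. Counts of called genes stayed at 0 in 80 of 83 cases. DESeq2 called 1 gene at 405 min (Vcp), and leaving out 135 min replicate 2 gave 1 (Ddi2) for both steps from or to 135 min, so the ranges were 0 to 1. DESeq2 called 224, 8 and 352 of 5030 genes against control at 45, 135 and 405 min, and 3, 0 and 62 of 8605 over the high-share steps, where edgeR called 0. Against control DESeq2 gave an adjusted p to 2299, 1714 and 2689 of the 5030. No value that turned sign was called before or after and the causes were not tested. Of the values that kept their sign, 87 of 312 changed in size by over 1.5 times, and 90 of 283 with 1 library left out. The spread between libraries limits all comparisons, and counts under 10 in some libraries those of Nfe2l2, Ddi2, Ngly1, Ufd1l and Nploc4.

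In low-share libraries alone the values against control turned to -0.52 (Nfe2l2), 0.16 (Keap1), -0.90 (Ngly1) and -2.58 (Ufd1l) at 45 min, to 0.51 (Keap1), -3.48 (Ddi2), -0.90 (Ngly1) and -2.68 (Ufd1l) at 135 min, and to -0.24 (Nfe2l1), -0.28 (Ngly1) and -0.73 (Nploc4) at 405 min. With the share as covariate they turned to -0.67 (Ngly1) and -1.74 (Ufd1l) at 45 min, 0.014 (Keap1), -1.26 (Ddi2), -0.63 (Ngly1) and -1.70 (Ufd1l) at 135 min, and 0.46 (Keap1), -1.31 (Ngly1) and -0.40 (Ufd1l) at 405 min. filterByExpr and no filter gave 0.0020 and 0.016 for Nploc4 at 45 min and 0.036 and 0.10 for Keap1 at 405 min. RLE factors and DESeq2 gave -0.54 and -0.56 for Ddi2 at 135 min and -0.39 each for Ngly1 at 405 min. In the time course, all 16 libraries gave 0.066 (Nfe2l1), 0.24 (Keap1) and -0.15 (Ufd1l) for 135 against 45 min, 0.60 (Nfe2l2) and -0.46 (Keap1) for 405 against 135 min, and -0.21 (Keap1) for 405 against 45 min. The sum of Ddi2 and Rsc1a1 gave 0.23 for 135 against 45 min.

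Same-numbered libraries did not all deviate together (14 of 24 pairs with r over 0.1, from -0.76 to 0.60). All 4 pairs of 45 and 135 min did, at r of 0.49 to 0.54, and at both times replicates 1 and 2 were high-share and the other replicates low-share libraries. With the replicate block, 0 of the 8 genes were called at any time, Vcp at 405 min was 2.75, and values turned to -0.82 (Ddi2 at 135 min against control), 0.23 (Ddi2) and -0.017 (Ngly1) for 135 against 45 min, and -0.12 (Nfe2l2) for 405 against 45 min.

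Of 304 values with 1 library left out, 21 turned sign. Against control the ranges were -0.19 to 0.40 for Nfe2l1 at 45 min and, at 135 min, -0.29 to 0.57 for Nfe2l1, -1.31 to 0.090 for Keap1, -4.25 to 1.20 for Ddi2 and -0.064 to 1.58 for Ngly1. For 135 against 45 min they were -1.92 to 0.30 for Nfe2l1, -0.69 to 1.47 for Nfe2l2, -1.24 to 0.18 for Keap1, -10.47 to 8.99 for Ddi2, -1.14 to 1.06 for Ngly1, -0.40 to 0.65 for Ufd1l and -5.91 to 1.97 for Nploc4. For 405 against 135 min they were -0.87 to 1.09 for Nfe2l2, 0.95 to 12.05 for Ddi2 and -0.089 to 0.72 for Ufd1l, and for 405 against 45 min -0.024 to 1.15 for Nfe2l2 and -0.38 to 0.88 for Vcp. A group left with 1 library was taken to vary like the others.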
